A study of Mus musculus with 6 samples.

Results

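The 10 genes of inflammatory signalling described here were measured in mouse acute myeloid leukemia (AML) blasts with and without Tet2. They are 10 of the 53458 genes summed from the deposited transcripts, taken by name as a set: the cytokines Il1a, Il1b, Tnf and Il6, the chemokines Cxcl2, Ccl3 and Ccl4, the inflammasome sensor Nlrp3, and the NF-kB feedback inhibitors Nfkbia and Tnfaip3. All 10 were found in the files and all 10 passed the filter on low counts. RNA was sequenced from blasts of 3 Cebpa-/p30 Tet2+/+ mice (mice 19, 23 and 24) and 3 Cebpa-/p30 Tet2-/- mice (mice 5, 7 and 8), with 1 library per mouse, and the question was what loss of Tet2 alters in leukemia that already carries a Cebpa mutation. Both groups are labelled as strain C57BL/6 (C57BL/6J donors in the study's methods) and lack the full-length p42 form of C/EBPα while keeping the short p30 form, so neither is a normal control. In both, donor marrow was grown in lethally irradiated adult female recipients and the floxed alleles were deleted with Mx1-Cre, an interferon-inducible Cre that is not restricted to one blood lineage. Cre was induced with Poly(I)-Poly(C), a double-stranded RNA mimic that is itself an inflammatory stimulus, in mice of both genotypes. Marrow was frozen when the mice were moribund, and after thawing the viable donor cells negative for CD3, B220 and Ter119 were sorted, so the sort removed lymphoid and erythroid cells but did not select one myeloid stage.

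IL-1, TNF and IL-6 are the classical cytokines of the acute inflammatory response, and CXCL2, CCL3 and CCL4 are chemokines that draw neutrophils, monocytes and T cells. Toll-like receptors and cytokine receptors activate the IKK kinases, which mark the inhibitor IκBα for destruction and release NF-kB dimers into the nucleus. NF-kB then switches on these cytokines together with its own brakes: Nfkbia encodes IκBα, which carries NF-kB back to the cytoplasm, and Tnfaip3 encodes A20, a ubiquitin-editing enzyme that stops signalling upstream of IKK.

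The samples were checked before the members were compared. Estimated reads summed to between 13036643 and 18478656 in 5 mice and to 32855343 in mouse 5. Summed over its transcripts, Tet2 was not lower in Tet2-/- blasts, where CPM is reads scaled to TMM-normalized library size: its level was 73.6, 79.5 and 98.4 CPM in mice 19, 23 and 24, against 111, 79.4 and 96.7 CPM in mice 5, 7 and 8. The sum over the gene therefore does not check the genotype labels. The 5 genes taken to mark myeloid blasts (Ptprc, Itgam, Cebpa, Mpo and Kit) each had a mean of at least 1 TPM, a level corrected for transcript length, while summed markers of mature neutrophils ranged from 21100 to 190000 TPM. In 3 of the lists of other cell types the summed markers did not overlap between genotypes. The 14 monocyte and macrophage markers summed to 1750 to 2730 TPM in Tet2+/+ and 2800 to 4280 TPM in Tet2-/- blasts. Most of this sum is 1 gene, Ly6c2, and the other 13 markers overlapped between genotypes, with their sum at 281 to 700 TPM in Tet2+/+ and 169 to 945 TPM in Tet2-/- blasts. Mouse 7 was the lowest of the 6 mice for 11 of the 14, in CPM. The 10 basophil and mast cell markers summed to 255 to 303 TPM in Tet2+/+ and 59.8 to 139 TPM in Tet2-/- blasts, and of these Tpsb2 had no reads and Prss34, Fcer1a, Il4 and Cma1 also had a mean under 1 TPM. In Tet2+/+ blasts most of this sum was Cpa3, which was at 173 to 283 TPM in Tet2+/+ and 11.5 to 57 TPM in Tet2-/- blasts. Without Cpa3 the sum overlapped, at 20 to 81.8 TPM and 45.8 to 106 TPM, and of the 7 markers tested only Cpa3 and Cd200r3 separated the genotypes while Hdc (log2 fold change 1) and Ms4a2 (0.48) were positive. The 5 blast markers summed to 1840 to 1950 TPM in Tet2+/+ and 1310 to 1760 TPM in Tet2-/- blasts. The 5 megakaryocyte and platelet markers summed to 14.8 to 24.1 TPM in Tet2+/+ and 6.23 to 10.5 TPM in Tet2-/- blasts. Without its most abundant gene, the blast sum (without Mpo, 399 to 452 TPM in Tet2+/+ and 368 to 826 TPM in Tet2-/- blasts) and the platelet sum (without Itga2b, 0.745 to 9.01 TPM and 1.28 to 3.5 TPM) also overlapped. These sums without the most abundant gene were added after the values were seen. In bulk samples fewer cells of a type and less RNA per cell cannot be told apart.

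Promoter sequence shows what these genes share outside the measurements. RefSeq promoters of GRCm38.p6 were found for 9 of the 10 members, all but Ccl4, and each covers 250 bases before to 50 bases after a start site. The NF-kB consensus of 10 bases, searched on both strands, was present in 5 of the 9 (Il6, Cxcl2, Nlrp3, Nfkbia and Tnfaip3), and in 5 of their 11 promoters since Nlrp3 and Tnfaip3 have an alternative one, against 8.46% of 32851 RefSeq promoters of this length. The 4 following sequences are shown because Nfkbia and Ccl3 are the members with a promoter entry that differed most between genotypes and Cxcl2 and Tnfaip3 are the ones with overlapping or repeated matches. Each is the stretch of 250 bases before the start site, written 5′ to 3′ on the strand of the gene. Capitals mark matches to the NF-kB consensus on either strand.

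Nfkbia, minus strand, chr12:55492648-55492897: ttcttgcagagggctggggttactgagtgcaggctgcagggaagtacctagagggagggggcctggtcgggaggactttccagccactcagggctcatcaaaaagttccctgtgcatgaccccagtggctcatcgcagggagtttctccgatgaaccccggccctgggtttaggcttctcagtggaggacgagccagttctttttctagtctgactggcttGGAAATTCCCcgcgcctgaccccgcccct

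Tnfaip3, minus strand, chr10:19015411-19015660: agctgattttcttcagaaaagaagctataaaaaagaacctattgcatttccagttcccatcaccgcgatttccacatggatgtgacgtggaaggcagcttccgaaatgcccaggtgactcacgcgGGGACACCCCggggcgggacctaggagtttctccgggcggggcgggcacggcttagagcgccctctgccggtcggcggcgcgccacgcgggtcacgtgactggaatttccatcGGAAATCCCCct

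Cxcl2, plus strand, chr5:90903649-90903898: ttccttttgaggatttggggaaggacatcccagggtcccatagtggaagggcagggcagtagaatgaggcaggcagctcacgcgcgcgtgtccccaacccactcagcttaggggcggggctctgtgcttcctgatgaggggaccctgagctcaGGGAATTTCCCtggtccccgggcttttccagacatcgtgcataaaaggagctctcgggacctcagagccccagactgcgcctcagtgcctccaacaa

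Ccl3, minus strand, chr11:83649379-83649628: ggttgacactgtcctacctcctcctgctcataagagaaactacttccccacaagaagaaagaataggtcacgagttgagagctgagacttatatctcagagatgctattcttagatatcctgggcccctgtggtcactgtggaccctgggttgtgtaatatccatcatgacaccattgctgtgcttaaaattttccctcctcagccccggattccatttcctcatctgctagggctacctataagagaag

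In Nfkbia the match lies from -29 to -20, counting the base before the start site as -1. Tnfaip3 has a match from -125 to -116 and another from -12 to -3. The Cxcl2 matches, from -97 to -88 and on the other strand from -96 to -87, overlap and read as 1 run. No match was found in this window of Ccl3, Tnf, Il1a or Il1b, which says nothing of sites elsewhere. The AP-1 motif TGANTCA was present in Il1a, Il6 and Tnfaip3, 3 of 9 members against 7.81% of promoters. The C/EBP motif TTGCNNAA, read on both strands, was present in 1 member, Il6, from -128 to -121, against 10.8% of promoters. The letters of a TATA box (TATAAA) were present in 5 members (Il1a, Il1b, Tnf, Nfkbia and Tnfaip3) against 13.6% of promoters. In Il1a, Il1b and Tnf they lie between -32 and -24. In Tnfaip3 they lie from -225 to -220, and in Nfkbia after the start site on the other strand. The motifs do not overlap the NF-kB matches in the same promoter, and a match of letters is a description, not a bound site.

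The members spanned a wide range of levels. On the per-length scale of TPM, the mean level over the 6 mice was 81.0 for Tnf, 61.1 for Nfkbia, 30.3 for Ccl3 and 18.2 for Il1b. It was 9.54 TPM for Ccl4, 7.59 for Nlrp3, 6.53 for Cxcl2 and 3.39 for Tnfaip3, and only 0.234 for Il6 and 0.132 for Il1a. Tnf, the most abundant cytokine of the set, thus stood at the other end of the range from Il6. The order of neighbours did not hold in every mouse: each member was above the next in 4 of 6 mice, with the exception of Tnfaip3, which was above Il6 in 6 of 6. The TPM level of Tnf was above that of Nfkbia in 3 of 3 Tet2+/+ mice and in 1 of 3 Tet2-/- mice, although the mean of Tnf was the higher one in Tet2-/- too (84.6 against 79.4 TPM), and this difference between genotypes was not tested.

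**Figure D1:**
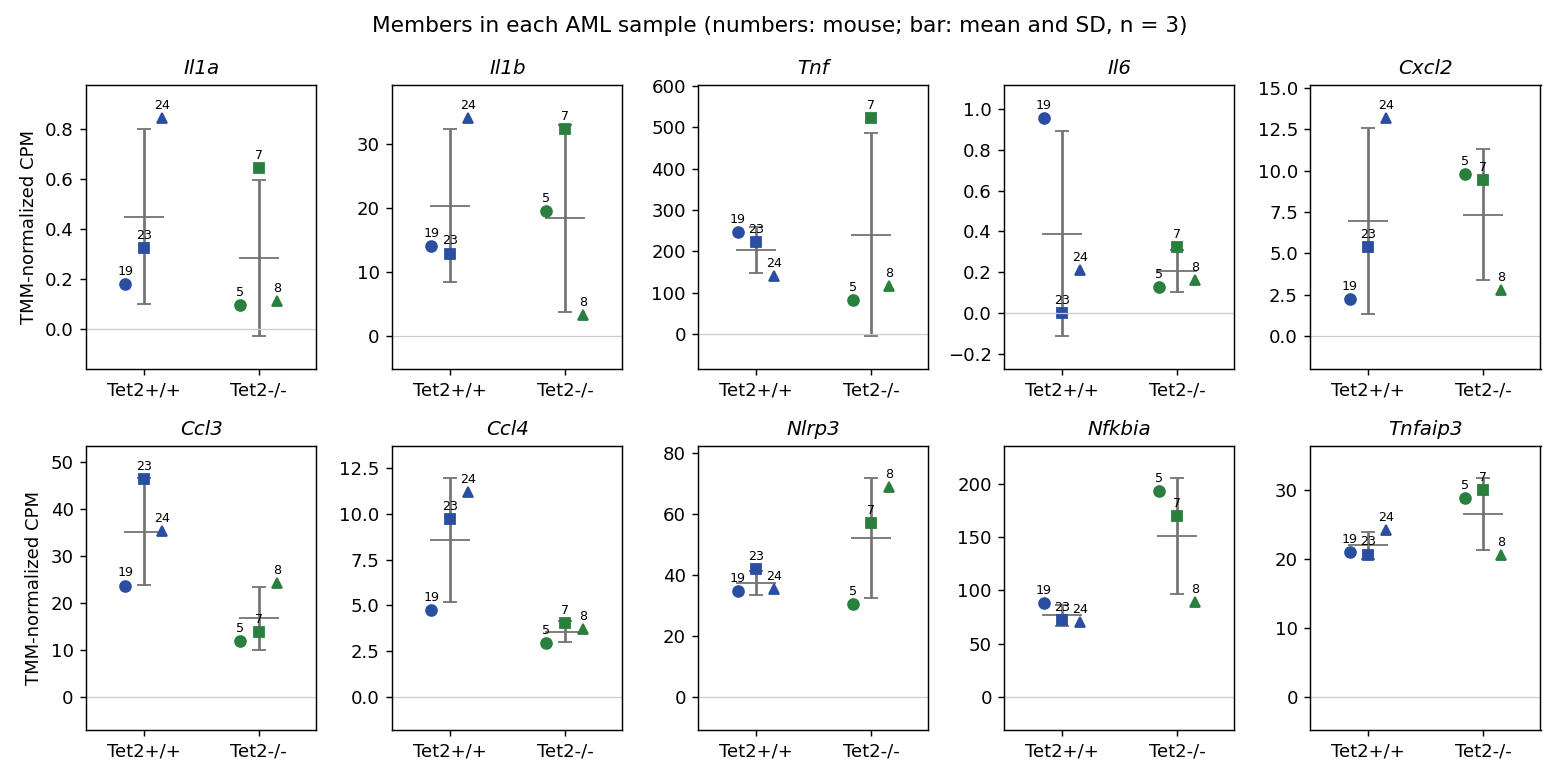
Level of each member in TMM-normalized CPM (vertical axis, a separate linear scale per gene) in the 3 Tet2+/+ and 3 Tet2-/- mice; points are mice with their numbers, bars the mean and SD. Ccl4 lies lower and Nfkbia higher in every Tet2-/- mouse, whereas Tnf is spread from 82.6 to 523 CPM within Tet2-/- alone.

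No member passed the test. With edgeR's quasi-likelihood test and Benjamini-Hochberg adjustment over 22170 genes, 0 of 10 members had an adjusted p under 0.05 in either direction, and DESeq2 on the same counts also called 0, where over the 18031 genes that it gave an adjusted p it called 1.8% lower and 0.327% higher. Over all genes tested, edgeR called 0.0451% lower and 0% higher in Tet2-/- blasts. At an unadjusted p under 0.05, 2 members (Ccl3 and Ccl4) were lower, against 5.12% of all genes, and 1 (Nfkbia) was higher, against 3% of all genes. In 1 member (Ccl4) every Tet2-/- mouse lay below every Tet2+/+ mouse, against 7.94% of all genes, and in 1 (Nfkbia) every Tet2-/- mouse lay above, against 6.41% of all genes. The members' log2 fold changes were negative in 5 and positive in 5, with a median of -0.03, beside 0 for all genes tested. This median was -0.9 without mouse 7 and 0.29 without mouse 8. The biological coefficient of variation, the spread between mice of a genotype beyond counting error, was between 25.2% (Tnfaip3) and 93.7% (Il6) for single members. With 3 mice per genotype the exact permutation test used below cannot give a two-sided p under 0.1. In all results a p that misses the threshold does not show that the genotypes are alike, and the 95% intervals give the sizes that the data allow.

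**Figure D2:**
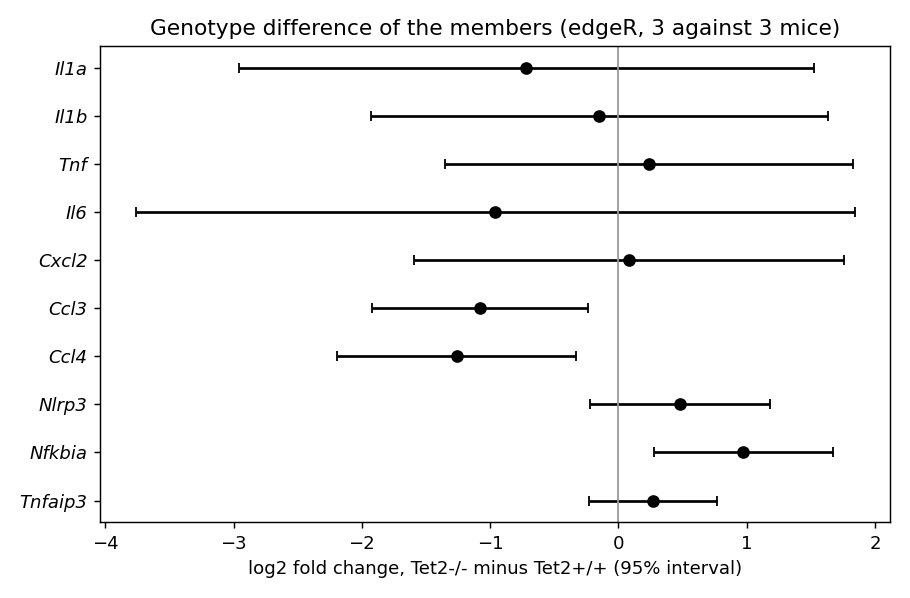
Log2 fold change of each member (Tet2-/- minus Tet2+/+, horizontal axis) with its 95% interval from edgeR, from 3 against 3 mice. The intervals of Ccl3, Ccl4 and Nfkbia do not include 0, but none of the 10 adjusted p is under 0.05.

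Among the cytokines, Tnf encodes TNF, a trigger of NF-kB in neighbouring cells. It lies on chromosome 17 (chr17:35199381-35202007, minus strand). The level of Tnf was 246, 223 and 141 CPM in mice 19, 23 and 24, and 82.6, 523 and 115 CPM in mice 5, 7 and 8. The genotypes overlapped, with mouse 7 highest of all 6 and mice 5 and 8 lowest, so that the highest level was 6.34 times the lowest in Tet2-/- and 1.74 times in Tet2+/+ blasts. The log2 fold change was 0.24 (SE 0.67, 95% interval -1.35 to 1.83, adjusted p = 0.957, edgeR). It was -1.04 without mouse 7, and then both remaining Tet2-/- mice lay below every Tet2+/+ mouse, with an adjusted p of 0.45 from edgeR. The share of all genes that separate with this mouse left out was not counted. With limma on log2(TPM + 1) in all 6 mice the log2 fold change of Tnf was -0.31. Mouse 7 also had the highest summed level of mature neutrophil markers, 190000 TPM against 21100 to 102000 TPM in the other 5 mice. The next highest sum, 102000 TPM, was that of mouse 5, which had the lowest Tnf level. Of the 14 monocyte and macrophage markers, mouse 7 was lowest for 11. It was highest for 11 of 17 immediate early and stress genes, which respond to handling of cells. The part of these cells or of handling in the Tnf level was not tested.

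Il1b (chr2:129364570-129371139, minus strand) encodes IL-1β, which is made as an inactive precursor and cut by the inflammasome. Its level was 14.1, 12.9 and 34.1 CPM in mice 19, 23 and 24, and 19.5, 32.4 and 3.26 CPM in mice 5, 7 and 8. Mice 24 and 7, one of each genotype, were highest, and mouse 8 was lowest by a wide margin. Within Tet2-/- blasts the highest level was 9.95 times the lowest, against 2.64 times in Tet2+/+. The log2 fold change was -0.15 (SE 0.76, 95% interval -1.93 to 1.63, adjusted p = 0.981, edgeR), and leaving out mouse 24 or mouse 8 turned it to 0.44 or 0.34. The antisense gene Il1bos overlaps 18.9% of the span of Il1b and had 10 to 22 reads per mouse, against 60 to 615 reads for Il1b, and their transcripts share 0% of sequence in windows of 31 bases.

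Il1a and Il6 were close to the limit of detection. Il1a (chr2:129299610-129309972, minus strand), which encodes IL-1α, a cytokine active without cutting, had 3, 6 and 12 reads in mice 19, 23 and 24, and 3, 10 and 2 reads in mice 5, 7 and 8. The genotypes overlapped, with a log2 fold change of -0.72 (95% interval -2.96 to 1.52, adjusted p = 0.881, edgeR). It was 0.07 without mouse 24 and -2.07 without mouse 7, and in the latter case both remaining Tet2-/- mice lay below every Tet2+/+ mouse, with an adjusted p of 0.521 from edgeR. The share of all genes that separate without mouse 7 was not counted. Gm14023, on the opposite strand, overlaps 79.3% of the Il1a span and shares 10% of its windows of 31 bases, and it had 9 to 19 reads per mouse, so part of the Il1a reads is uncertain. The library kit does not mark strand. Il6 (chr5:30013114-30019981, plus strand) encodes IL-6, a cytokine that signals through STAT3, and had 16, 0 and 3 reads in mice 19, 23 and 24, and 4, 5 and 3 reads in mice 5, 7 and 8. Most reads of the Tet2+/+ mice came from mouse 19, and the count of 0 in mouse 23 allows a level of up to 0.161 CPM (3 reads). At these counts a difference was not detectable, and the log2 fold change of -0.96 (95% interval -3.76 to 1.84, adjusted p = 0.871, edgeR) became 0.97 without mouse 19.

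Of the 3 chemokines, Ccl3 and Ccl4 had the 2 most negative log2 fold changes of the set, and that of Cxcl2 was near 0. Ccl3 (MIP-1α) and Ccl4 (MIP-1β) are neighbours on chromosome 11, at chr11:83647844-83649355 (minus strand) and chr11:83662584-83664683 (plus strand). The level of Ccl3 was 23.7, 46.4 and 35.3 CPM in mice 19, 23 and 24, and 11.9, 13.9 and 24.3 CPM in mice 5, 7 and 8. The level of Ccl4 was 4.73, 9.69 and 11.2 CPM in mice 19, 23 and 24, and 2.94, 4.05 and 3.69 CPM in mice 5, 7 and 8. Mouse 19 was the lowest Tet2+/+ mouse for both genes, and mouse 8 lay just above it for Ccl3, so the genotypes overlapped for Ccl3 and did not for Ccl4. For Ccl3 the log2 fold change was -1.08 (SE 0.36, 95% interval -1.92 to -0.24, p = 0.0191, adjusted p = 0.545, edgeR; exact permutation test, two-sided p = 0.2). For Ccl4 it was -1.26 (SE 0.39, 95% interval -2.19 to -0.33, p = 0.0146, adjusted p = 0.525, edgeR; exact permutation test, two-sided p = 0.1).

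Both chemokines kept the negative direction in all 16 alternative settings, with log2 fold changes of -1.45 to -0.85 for Ccl3 and -1.56 to -1.02 for Ccl4. The lowest adjusted p of these settings came from DESeq2 on the same counts, 0.201 for Ccl3 and 0.111 for Ccl4. Of the basophil and mast cell markers given above, Cpa3 and Cd200r3 were also lower in every Tet2-/- mouse while the sum of the markers without Cpa3 overlapped. Other markers were lower too: the NK cell receptor Ncr1 had 3.64 to 5.35 CPM in Tet2+/+ and 0.488 to 1.42 CPM in Tet2-/- mice, without overlap, although 5 of the 10 T and NK cell markers were positive and their summed level overlapped. All 6 eosinophil markers had a negative log2 fold change, with a median of -1.04, of which only Il5ra did not overlap, and their summed level overlapped. Monocyte and macrophage markers went the other way, with 12 of 14 positive and a median of 0.71. Mature neutrophil markers did so too, with 12 of 12 positive and a median of 0.92. The part of any of these cells in the levels of Ccl3 and Ccl4 was not tested.

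Cxcl2 (chr5:90903871-90905938, plus strand) encodes a ligand of CXCR2 on neutrophils. Its level was 2.27, 5.41 and 13.2 CPM in mice 19, 23 and 24, and 9.81, 9.45 and 2.77 CPM in mice 5, 7 and 8. Each genotype held mice at both ends of the range, and the log2 fold change was 0.08 (SE 0.71, 95% interval -1.59 to 1.76, adjusted p = 0.988, edgeR). It turned negative in 5 of 16 settings, down to -0.34 without mouse 19. Cxcl2 shares 7.59% of its windows of 31 bases with the neighbouring Cxcl3, which had 2 to 17 reads per mouse against 38 to 310 for Cxcl2.

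Nlrp3 (chr11:59541568-59566956, plus strand) encodes the sensor of the inflammasome, which activates caspase-1. Its level was 34.8, 41.9 and 35.3 CPM in mice 19, 23 and 24, and 30.6, 57.1 and 68.8 CPM in mice 5, 7 and 8. The Tet2-/- mice lay on both sides of the narrow Tet2+/+ range, with mouse 5 lowest of all and mouse 8 highest. The log2 fold change was 0.48 (SE 0.3, 95% interval -0.22 to 1.18, adjusted p = 0.725, edgeR). It stayed positive in all 16 settings, between 0.23 and 0.75. Without mouse 5, both remaining Tet2-/- mice lay above every Tet2+/+ mouse, but the share of all genes that separate without it was not counted.

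Of the NF-kB inhibitors, Nfkbia (chr12:55489410-55492647, minus strand) had the positive difference with the lowest p of the set. Its level was 88.2, 72.1 and 70.3 CPM in mice 19, 23 and 24, and 193, 170 and 89.5 CPM in mice 5, 7 and 8. All 3 Tet2-/- mice were above the Tet2+/+ mice, but mouse 8 exceeded mouse 19 by only a small step, while mice 5 and 7 were well above. The log2 fold change was 0.97 (SE 0.29, 95% interval 0.28 to 1.67, p = 0.0127, adjusted p = 0.507, edgeR; exact permutation test, two-sided p = 0.1), a fold of 1.96. It was between 0.75, without mouse 5, and 1.24, without mouse 8, and the lowest adjusted p of any setting was 0.134, from DESeq2 on length-scaled counts. With the filterByExpr filter the groups overlapped. Of the 14 monocyte and macrophage markers, 12 had a positive log2 fold change, but Ly6c2 was the only one higher in every Tet2-/- mouse. All 12 mature neutrophil markers had a positive log2 fold change, with a median of 0.92 and overlap in each, and their sum was 102000, 190000 and 43600 TPM in mice 5, 7 and 8, against 95300, 21100 and 75400 TPM in mice 19, 23 and 24. The part of either cell type in the Nfkbia level was not tested.

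Tnfaip3 (chr10:19000910-19015657, minus strand) was the member with the smallest spread. Its level was 21.0, 20.6 and 24.2 CPM in mice 19, 23 and 24, and 28.8, 30 and 20.5 CPM in mice 5, 7 and 8. Mice 5 and 7 were highest, as for Nfkbia, and mouse 8 was lowest of all 6. The log2 fold change was 0.27 (SE 0.21, 95% interval -0.23 to 0.77, adjusted p = 0.787, edgeR). With limma on log2(TPM + 1) it was -0.05.

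By mouse rather than by gene, the highest and lowest levels were spread over both genotypes. Mouse 7 (Tet2-/-) was in the top 2 for 7 of 10 members and lowest for none. Mouse 24 (Tet2+/+) was highest for 4 members, Il1a, Il1b, Cxcl2 and Ccl4. Mouse 5 (Tet2-/-) was lowest for 5 members, Il1a, Tnf, Ccl3, Ccl4 and Nlrp3, and yet highest for Nfkbia. Mouse 8 (Tet2-/-) was highest for Nlrp3 and lowest for Il1b and Tnfaip3. Of the 8 members with a mean of at least 1 CPM, 6 had a wider range within Tet2-/- than within Tet2+/+ blasts, as did 70.5% of the 13587 genes at this level that had reads in every mouse, so the members' share of 75% was near that of all genes.

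**Figure D3:**
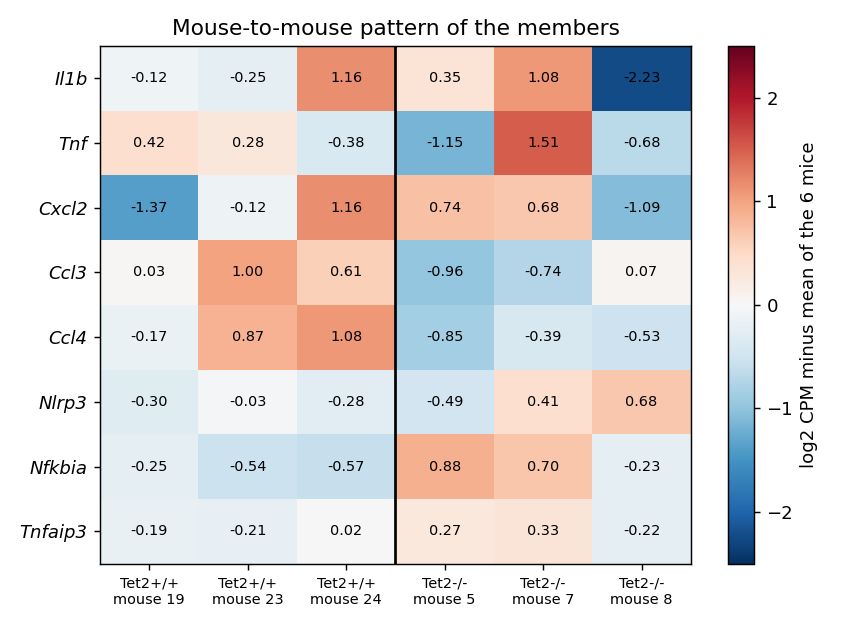
Log2 CPM of the 8 members with a mean of at least 1 CPM, minus the mean of the 6 mice, in each mouse; red is above and blue below the gene's own mean. Il1b in mouse 8 (-2.23) and Tnf in mouse 7 (1.51) are the widest departures, all 3 Tet2+/+ mice are below the mean for Nfkbia and Nlrp3 and above it for Ccl3, and all 3 Tet2-/- mice are below it for Ccl4.

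Single transcripts were also examined, for the 5 members with at least 30 reads in every mouse and at least 2 transcripts holding 10% of the reads in a mouse. The read minimum was set after the values were seen. Il6 and Il1a fall below it and were also left out by name, and Il1a has only 1 annotated transcript. Salmon divides reads among transcripts, so these shares are estimates. Of 14 transcripts, 1 share was lower and 1 higher in every Tet2-/- mouse, beside 6.89% lower and 6.32% higher among 21842 transcripts of all genes chosen in this way, and both had an adjusted p of 0.7 (exact permutation test, two-sided, Benjamini-Hochberg). The Il1b transcript with a retained intron (Il1b-203) held 16.4, 13.9 and 13.4% of Il1b reads in mice 19, 23 and 24, but 7.47, 10.6 and 10.3% of them in mice 5, 7 and 8. The Cxcl2 transcript Cxcl2-204, also with a retained intron, was listed at 0, 9.55 and 10% of Cxcl2 reads in mice 19, 23 and 24, but at 22, 11.9 and 10.5% of them in mice 5, 7 and 8. Both shares rest on few reads in some mice: all Cxcl2 transcripts together had 38 reads in mouse 19 and 51 in mouse 8, and those of Il1b had 60 in mouse 8. For Nlrp3, the transcript Nlrp3-201 was listed at 0% in mouse 24 and held 72.7 to 90.8% of reads in the other 5 mice, with Nlrp3-202 at 96.5% in mouse 24. For Tnfaip3, Tnfaip3-202 held 55.6 to 57.5% of reads in the Tet2-/- mice, and 28.5, 56.9 and 27.9% in mice 19, 23 and 24. For Nfkbia, the coding transcript Nfkbia-201 held 70.3% ± 3.23 (SD, n = 3) of reads in Tet2-/- and 74.6% ± 3.11 (SD, n = 3) in Tet2+/+ blasts, with overlap.

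**Figure D4:**
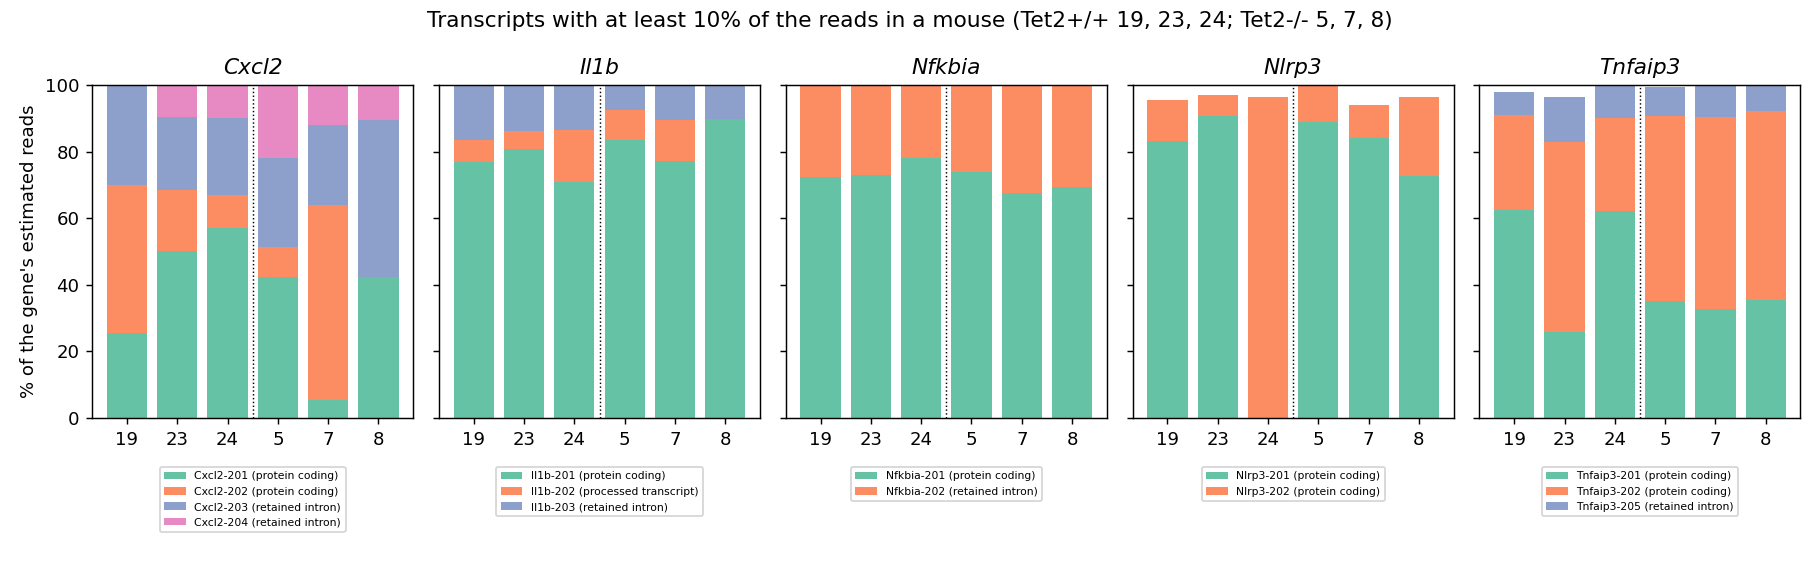
Share of each gene's estimated reads (vertical axis, percent) in transcripts holding at least 10% in some mouse, by mouse; bars under 100% leave out minor transcripts. Nlrp3 in mouse 24 and Cxcl2 in mouse 7 differ from the other mice of their own genotype.

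The rest of the pathway was read from lists around the members. Of the 125 list genes tested, edgeR called 0 at an adjusted p under 0.05, and at an unadjusted p under 0.05 it had 1 lower and 11 higher in Tet2-/- blasts, where 5.12% and 3% of all genes were. The counts of list genes that do not overlap, below, stand beside 7.94% lower and 6.41% higher over all genes. Most list genes averaged 1 CPM or more. Of the 13839 genes at that level, 1067 were lower and 1141 higher without overlap. At an unadjusted p under 0.05 from edgeR, 722 of them were lower and 541 higher. Of the list genes, DESeq2 on the same counts called 2, Tlr13 (log2 fold change 1.04, adjusted p = 7.86e-07) and Tnfrsf1a (0.63, adjusted p = 0.0137), both higher, beside 0.327% higher and 1.8% lower among all genes with an adjusted p from DESeq2. All list medians below are log2 fold changes after TMM normalization, beside 0 for all genes tested and 0.05 for genes that averaged 1 CPM or more. Scaling by library size alone shifted the median of all genes by -0.17.

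The 20 Toll-like receptors and adaptors had a median of 0.35, with 5 higher and 0 lower in every Tet2-/- mouse, and the median was 0.18 with library size alone. Tlr13, a receptor for bacterial ribosomal RNA, had 66.5, 62.6 and 53.1 CPM in mice 19, 23 and 24, and 129, 116 and 127 CPM in mice 5, 7 and 8. These groups were far apart, with a log2 fold change of 1.03 (SE 0.16, adjusted p = 0.14, edgeR), which was closer to the threshold than any member. Tlr2, which senses bacterial lipoproteins, had a log2 fold change of 0.91 (SE 0.3, adjusted p = 0.544, edgeR), without overlap. Irak1, a kinase of this route, was at 183 ± 24.8 CPM in Tet2-/- and 189 ± 2.04 CPM in Tet2+/+ blasts (SD, n = 3).

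The 15 receptors and decoys of the members' cytokines had a median of 0.58, which was 0.4 with library size alone and between 0.29 (without mouse 5) and 0.49 with 1 mouse left out, with 4 higher and 1 lower in every Tet2-/- mouse. Tnfrsf1a, the main TNF receptor, had 138, 124 and 134 CPM in mice 19, 23 and 24, and 195, 220 and 196 CPM in mice 5, 7 and 8. Its log2 fold change was 0.62 (SE 0.15, adjusted p = 0.364, edgeR), without overlap. Ccr1, a receptor of CCL3, had a log2 fold change of 0.61 (SE 0.23, adjusted p = 0.599, edgeR), without overlap, where that of Ccl3 was -1.08. Cxcr2, the receptor of CXCL2, was at 0.8 (SE 0.68) and Il6ra at -0.05 (SE 0.41), both with overlap. Of the monocyte and macrophage markers, Ly6c2 was also higher in every Tet2-/- mouse and the other 13 overlapped, while the mature neutrophil markers were positive in 12 of 12 with a median of 0.92. The part of either cell type in the receptor lists was not tested.

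The 13 NF-kB subunits and IKK-TAK1 kinases had a median of 0.09, and -0.08 with library size alone. Rela, which encodes the p65 subunit, had 72, 77.8 and 73.5 CPM in mice 19, 23 and 24, and 97.8, 91.5 and 89.5 CPM in mice 5, 7 and 8, without overlap (log2 fold change 0.32, SE 0.14, adjusted p = 0.623, edgeR). Tab1, a partner of the kinase TAK1, was also without overlap (0.44, SE 0.17), whereas Nfkb1 (0.04, SE 0.2) and Tab2 (-0.09, SE 0.19) overlapped. The 19 other inhibitors, feedback proteins and targets had a median of 0.34, and 0.17 with library size alone, with 4 higher and 0 lower in every Tet2-/- mouse. Nfkbid, an atypical IκB of the nucleus, had a log2 fold change of 0.72 (SE 0.29, adjusted p = 0.604, edgeR) and Zc3h12a, an RNase that cuts cytokine mRNA, of 0.67 (SE 0.23, adjusted p = 0.578, edgeR), both without overlap. Zfp36, which encodes the mRNA decay factor TTP, was at 0.44 (SE 0.45) and Pim1 at 0.11 (SE 0.56).

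The 11 inflammasome and IL-1 processing genes had a median of 0.03, and -0.16 with library size alone. Gsdmd, the pore protein of pyroptosis, was at 0.03 (SE 0.19), Txnip at 0.1 (SE 0.29), and the DNA sensor Aim2 at -0.37 (SE 0.17), lower in every Tet2-/- mouse. Of 25 other inflammatory cytokines, chemokines and enzymes, 20 were tested, with a median of 0.11, which was -0.07 with library size alone and -0.29 without mouse 7. The chemokines Ccl6 (0.23, SE 0.4) and Ccl9 (0.71, SE 0.75) overlapped, and Tnfsf10, which encodes TRAIL, was at -0.74 (SE 0.33), lower in every Tet2-/- mouse. Nos2, named after its values were seen, had a log2 fold change of 5.86 from mouse 5 alone, with 14.7 CPM there and at most 0.163 CPM in the other 5 mice. The 10 genes of mRNA decay and translation had a median of 0.08, and -0.09 with library size alone. Mapkapk2, the kinase that acts on TTP, was at 0.51 (SE 0.18), and its activator Mapk14 (p38α) at 0.24 (SE 0.18), both higher in every Tet2-/- mouse, and Zfp36l2 was at -0.31 (SE 0.24).

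The 17 immediate early and stress genes, which also respond to handling of cells, had a median of 0.34, which was 0.15 with library size alone, -0.2 without mouse 7 and 0.47 without mouse 5. Mouse 7 was highest for 11 of the 17, mouse 23 for 5 and mouse 24 for 1. Fos (0.23, SE 0.46) and Jun (-0.02, SE 0.41) overlapped, and Egr2 (-0.95, SE 0.49) and the MAP kinase phosphatase Dusp2 (-0.98, SE 0.38) were lower in every Tet2-/- mouse. The samples were frozen, thawed and sorted, and the part of handling in the levels of the members was not tested.

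**Figure D5:**
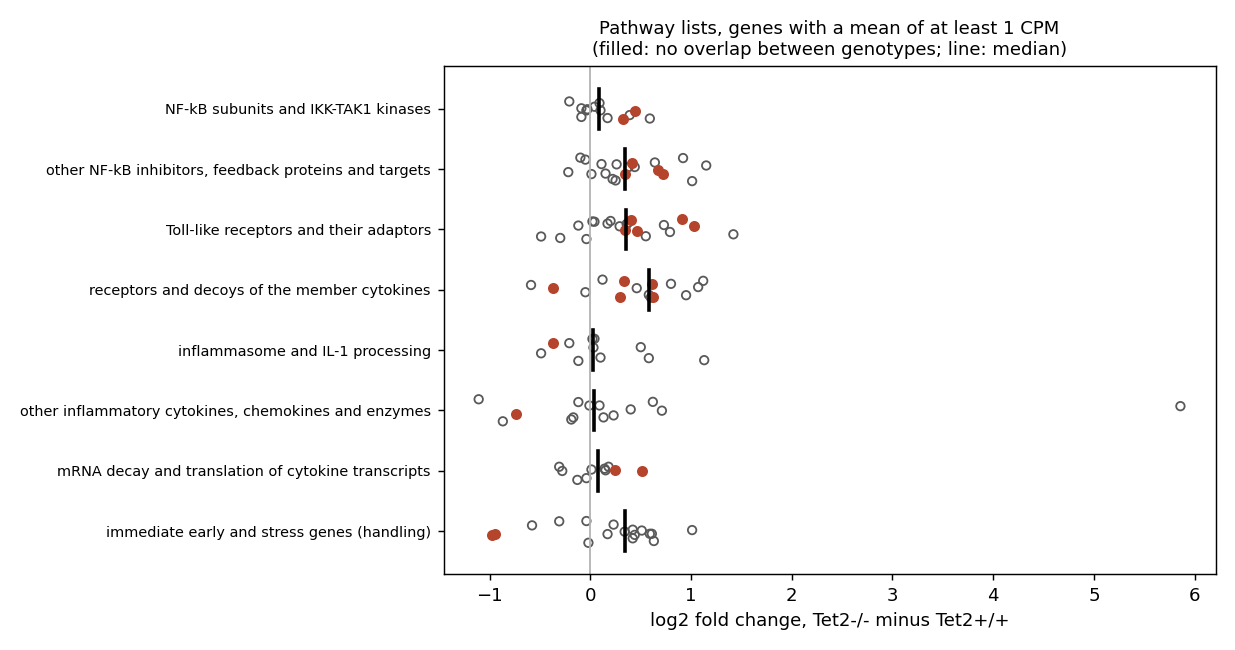
Log2 fold change (Tet2-/- minus Tet2+/+, horizontal axis) of the genes of each pathway list that averaged 1 CPM or more; filled points do not overlap between genotypes and lines are medians. The medians of the receptor, Toll-like receptor, feedback and immediate early lists lie between 0.34 and 0.58, and the single point at 5.86 is Nos2.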

How the data were processed

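RNA of sorted AML blasts from 6 mice was sequenced from TruSeq libraries, which do not mark strand, on a NextSeq instrument. Per the methods and the submitters' processing notes, transcripts of GRCm38 were quantified with Salmon 0.12.0. The estimated counts were deposited by the authors as reads per transcript, not normalized between mice. For each transcript the authors also deposited a TPM level, in which Salmon corrects for transcript length and gives every library one common total. The estimated counts of 136288 transcripts were summed here to 53458 genes of GENCODE M21 (GRCm38) and rounded, and 112 transcripts without a gene (0.0307% to 0.0416% of reads) were left out. Estimated reads summed to 16798815, 16900584 and 13036643 in mice 19, 23 and 24, and to 32855343, 17953277 and 18478656 in mice 5, 7 and 8. Floors and counts cover counting error only, since reads carry no molecular identifiers.

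The 22170 genes with library-size-normalized counts summing to at least 10 were tested with edgeR 4.0.16 in R 4.3.3 (TMM normalization, quasi-likelihood test, no covariates), with Benjamini-Hochberg adjustment at 0.05. The study's own method was DESeq2 on length-scaled counts, tried here as an alternative. CPM values are TMM-normalized, and log2 fold changes are Tet2-/- minus Tet2+/+. The exact permutation test was two-sided, on log2(CPM + 0.5). The labels call the mice separate samples and give no batch, and mouse numbers do not pair genotypes. Alternatives were DESeq2 1.42.0, length-scaled counts, other filters and scalings, robust estimation, leaving out each mouse and limma 3.58.1 on log2 TPM with pseudocounts of 1 and 0.1. On simulated data for these 22170 genes, edgeR called 42% of 200 genes with a log2 change of 2, called 5 unchanged genes, and called 0 when none changed. Python 3.11.15, pandas 2.3.3 and matplotlib 3.10.9 were also used.

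The members and lists were chosen with earlier results of these data known. From each list the text names the genes past the threshold, the 2 with the highest mean CPM, and the 2 with the largest change among non-overlapping genes averaging 1 CPM or more, and Tet2. Overlaps of sequence were counted in windows of 31 bases over annotated transcripts.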

Additional observations from a re-analysis of the deposited data

How the results depend on the processing

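Across the 16 alternative settings, 158 fits of members were made, of which 143 had the same direction as the values above (or, for Tnf with library size only, a value that rounds to 0), 15 had the opposite sign, and 0 gave an adjusted p under 0.05. The lowest adjusted p was 0.111, for Ccl4 with DESeq2. Ccl3, Ccl4, Nlrp3 and Nfkbia kept their direction in all settings. Cxcl2 turned to -0.14 with library size only, -0.34 without mouse 19, -0.1 without mouse 23, -0.19 without mouse 5 and -0.14 without mouse 7. Il1b was 0.44 without mouse 24 and 0.34 without mouse 8, and Il1a was 0.07 without mouse 24. Il6 was 0.97 without mouse 19 and 0.24 with limma on log2(TPM + 0.1). Tnf was -1.04 without mouse 7, 0 with library size only, and -0.31 and -0.32 with limma at pseudocounts of 1 and 0.1. Tnfaip3 was -0.05 and -0.07 with limma at these pseudocounts. With any 1 mouse removed, the log2 fold changes ranged between -2.07 and 0.07 for Il1a, -0.83 and 0.44 for Il1b, -1.04 and 0.66 for Tnf, -1.57 and 0.97 for Il6, and -0.34 and 0.93 for Cxcl2. The cause of these changes was not tested. With 1 mouse removed, list medians ranged between 0 and 0.16 for NF-kB subunits and kinases, -0.05 and 0.13 for the inflammasome, and -0.06 and 0.11 for mRNA decay. The median of the members was -0.9 without mouse 7, and library size only moved the median of all genes to -0.17.

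Over all genes, where edgeR called 10 lower and 0 higher, DESeq2 called 325 lower and 59 higher on the same counts, and 325 lower and 64 higher on length-scaled counts. EdgeR called 5 lower on length-scaled counts and 62 lower and 4 higher with no filter. It called 1 higher with filterByExpr and 1 with RLE factors. Leaving out each mouse gave 0 to 7 lower and 0 higher. Members lower in every Tet2-/- mouse numbered 1 to 3 and members higher 1 to 2 when each mouse was left out, and with filterByExpr 0 were higher. The shares of all genes that separate with 1 mouse left out were not counted. Those given above are for the full set of mice, so the counts with 1 mouse left out have no share beside them. Both transcript shares that separated the genotypes did so at a share of 5% as at 10%. No paired analysis was possible because the mouse numbers of the 2 genotypes do not overlap. Depth limits Il1a and Il6, which had at most 16 reads in a mouse.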
